A study of Mus musculus with 6 samples.

Results

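The mitochondrial genome encodes 37 genes in the mouse annotation, namely 13 protein genes, 2 ribosomal RNAs and 22 transfer RNAs, and their symbols all start with mt-. Of the 30323 gene rows of the deposited table, 13 carried such a symbol, and these were the 13 protein genes. The 2 ribosomal RNA and 22 transfer RNA genes were not analysed here. The RNA came from whole mouse hearts at embryonic day 9.5. There were 3 control libraries, labelled C57BL/6 ctrl, and 3 in which Cdc42 was knocked out in the myocardium (MCKO), labelled CDC-42 KO, and Cdc42 is a small GTPase that controls actin and cell polarity. The Cre line that limits the knockout to the myocardium, the deleted exon and the litters are not given in the labels, and the controls' alleles are not given beyond the strain. The design text speaks of 3 hearts in each set without tying a library to a heart, so p-values measure only the spread between these libraries, which may be technical. A whole heart also holds endocardium, blood and other cells in which Cdc42 was not the target.

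All 13 mitochondrial proteins are subunits of the respiratory chain and ATP synthase. Complex I (the mt-Nd genes) takes electrons from NADH, complex III (mt-Cytb) passes them to cytochrome c, complex IV (the mt-Co genes) gives them to oxygen, and complex V (the mt-Atp genes) makes ATP. Both strands of the circular genome are transcribed by the polymerase POLRMT, with TFAM and TFB2M, into long precursors. Transfer RNAs lie between most of the other genes, and cutting them out frees the messenger RNAs, most of which then receive a short poly(A) tail. The remaining subunits, and every factor of mitochondrial transcription, are encoded in the nucleus. The early embryonic heart is known for immature mitochondria and a large use of glycolysis.

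Several of the 13 rows share their letters with nuclear pseudogenes, which bears on several of the values below. Of the nuclear genes, 7 shared at least 90% of their 31-base words, all stretches of that length, with a mitochondrial gene, and they are called near-identical copies here. All 7 lie on the minus strand of 1 stretch of chromosome 1, chr1:24611535-24616197 in GRCm38, the assembly also called mm10. That stretch of 4663 bases holds them in the order of the mitochondrial genome. Gm28661 (chr1:24614885-24615565) was identical to mt-Co2 over all of its 681 bases, and Gm10925 (chr1:24613974-24614651) to mt-Atp6 over 678 bases. Likewise Gm28437 (chr1:24613189-24613971) was identical to mt-Co3 over 783 bases, Gm10222 (chr1:24612407-24612700) to mt-Nd4l over 294 bases and Gm28439 (chr1:24611535-24612410) to mt-Nd4 over 876 bases. A read from such a stretch carries no base that tells the mitochondrial gene from the copy. The transcript of mt-Nd4 runs 502 bases past its copy, and the other 4 run 1 or 3 bases past theirs. The 3′ ends of these 4 pairs are printed because they hold the only letters that differ, with capitals for the bases that the annotated mitochondrial transcript has and the copy lacks (GENCODE M21 transcripts, 5′ to 3′).
mt-Co2: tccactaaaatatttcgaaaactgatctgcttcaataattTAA
Gm28661: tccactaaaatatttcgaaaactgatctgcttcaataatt
mt-Atp6: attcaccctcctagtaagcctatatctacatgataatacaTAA
Gm10925: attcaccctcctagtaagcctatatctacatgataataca
mt-Co3: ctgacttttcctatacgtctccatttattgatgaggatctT
Gm28437: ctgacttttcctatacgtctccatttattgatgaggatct
mt-Nd4l: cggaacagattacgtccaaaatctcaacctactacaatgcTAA
Gm10222: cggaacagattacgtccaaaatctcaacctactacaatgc

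The other near-identical copies differed within their sequence, at their 5′ starts. Gm28438 (chr1:24612775-24613119) differed from mt-Nd3 by 1 base, T3C, counted from the first base of mt-Nd3 with the mitochondrial base first, and it lacked the last 3 bases of mt-Nd3. Gm29216 (chr1:24615706-24616197) matched the last 492 bases of mt-Co1, from position 1054, with 6 differences in its first 13 bases: T1056A, C1057T, A1059G, A1060G, C1062A and A1066T. These starts are shown with the differing bases in capitals.
mt-Nd3: atTaacctgtacactgtt
Gm28438: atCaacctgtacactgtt
mt-Co1: ggTCtAAcCggaAttgttttatccaact
Gm29216: ggATtGGcAggaTttgttttatccaact

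The remaining 6 genes, mt-Nd1, mt-Nd2, mt-Nd5, mt-Nd6, mt-Cytb and mt-Atp8, had no near-identical copy by this criterion. Members also overlap each other. The last 43 bases of mt-Atp8 are the first 43 of mt-Atp6, printed here because reads inside them belong to both, and the 2 genes are translated from 1 messenger RNA.
mt-Atp8 and mt-Atp6: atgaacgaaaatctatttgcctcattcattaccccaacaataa
In the same way mt-Nd4l and mt-Nd4 share 7 bases and 1 messenger RNA. The genes mt-Nd5 and mt-Nd6 overlap by 14 bases on opposite strands. The transcripts of mt-Co3, mt-Nd4 and mt-Cytb end in a lone T after their last full codon, in capitals here, which the poly(A) tail completes to a stop codon.
mt-Co3: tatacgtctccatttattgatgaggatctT
mt-Nd4: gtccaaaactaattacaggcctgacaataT
mt-Cytb: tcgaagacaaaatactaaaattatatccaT

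Control libraries held 19256840 to 32169289 estimated counts, and MCKO libraries 23883877 to 34246477. CPM scales each count to a total of 1000000 in its library. Cdc42 was at 399, 377 and 424 CPM in the controls and 248, 241 and 238 CPM in MCKO, without overlap (log2 fold change -0.66, SE 0.047, adjusted p = 2.93e-06 by edgeR). Of all tested genes 29.1% fell and 29.3% rose, and the marker counts that follow stand beside these shares. The heart muscle markers were present, with 10 listed genes summing to 37043 to 40434 CPM in controls and 43134 to 44625 CPM in MCKO, and 4 of them rose and 1 fell. The 10 primitive red cell markers summed to 3318 to 3719.8 CPM in controls and 7188 to 7698 CPM in MCKO, and all 10 rose. Of 10 endothelial and endocardial markers 8 rose and 2 fell (1129 to 1158 CPM in controls and 1321 to 1355 CPM in MCKO). Of 10 mesenchyme and neural crest markers 6 fell (297 to 308 CPM in controls and 169.6 to 171 CPM in MCKO). Of 9 tested epicardial markers 7 fell and 1 rose, while their sum, led by Krt19 (named after its value was seen), was 264 to 274 CPM in controls and 459.7 to 507 CPM in MCKO. Of 4 tested leukocyte markers 2 fell (13.8 to 14.6 CPM in controls and 2.66 to 3.89 CPM in MCKO, with C1qa at 0 in all 6 libraries). The endoderm markers (3 of 8 lower, 5 higher) summed to 15.8 to 19.3 CPM in controls and 14.0 to 14.7 CPM in MCKO, and the neural tube markers (2 of 6 lower, 3 higher) to 324 to 363 CPM in controls and 394 to 397 CPM in MCKO. The part of these shifts in the results below was not tested, and in whole hearts fewer cells of a type and less RNA per cell cannot be told apart.

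Mitochondrial messenger RNA was lower in every MCKO library. The 13 rows together took 3.13, 3.24 and 3.55% of the counts in control replicates 1, 2 and 3 and 1.38, 1.32 and 1.31% in MCKO replicates 1, 2 and 3. The near-identical copies alone took 0.597, 0.552 and 0.604% in controls and 0.270, 0.294 and 0.254% in MCKO. With the copies added, the share was 3.89 ± 0.230% in controls and 1.61 ± 0.0414% in MCKO (SD, n = 3 each), 2.42-fold lower, and the groups did not overlap. The exact permutation p was 0.1, 2-sided, which is the smallest that 3 libraries against 3 can give. The sums with the copies are used below for every gene with a near-identical copy, also where, as for mt-Co1, the copy covers only part of the gene.

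By edgeR over all rows as deposited, 11 of the 13 genes were called lower in MCKO at an adjusted p under 0.05, and mt-Co2 and mt-Nd3 were not called. Of all 14697 tested genes, 29.1% were called lower. With the near-identical copies added to their genes all 13 were called lower, beside 29.1% of all tested genes. Their log2 fold changes then ran from -1.88 for mt-Nd1 to -0.91 for mt-Nd2, with a median of -1.21 against 0.00 over all tested genes. The groups did not overlap for any of the 13, where 37.2% of all tested genes had MCKO wholly below control. In the fit, at least 2-fold lower and called were 11 of the 13, all but mt-Nd2 and mt-Co2, beside 4% of all tested genes.

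**Figure D1:**
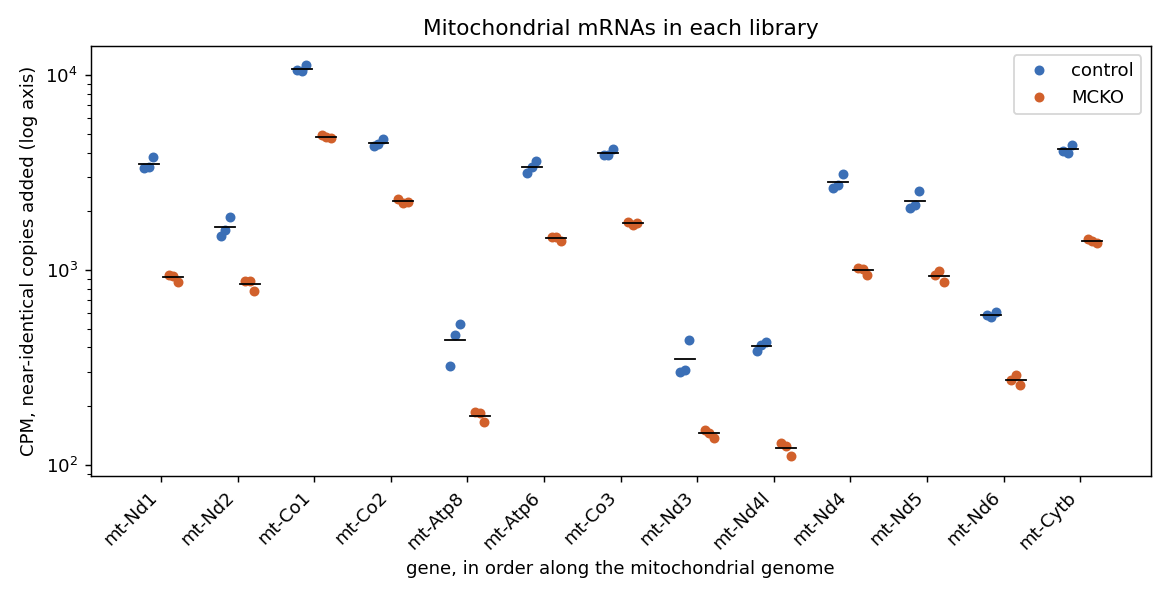
CPM with near-identical nuclear copies added (log axis) of the 13 mitochondrial messenger RNAs in order along the mitochondrial genome, with 1 point per library and bars at the group means. Every MCKO point lies below every control point of the same gene, from mt-Co1 at 10801 CPM in controls and 4829.5 CPM in MCKO down to the lowest gene of each group, mt-Nd3 at 349 CPM in controls and mt-Nd4l at 121 CPM in MCKO.

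All 7 complex I genes fell, and by unequal amounts. Together, with the copies of mt-Nd3 added, they held 10826, 11183 and 12835 CPM in the controls and 4343, 4359 and 3971 CPM in MCKO, 2.75-fold lower in MCKO. The largest fall among the 13 was that of mt-Nd1, a membrane subunit next to the ubiquinone site, on the mitochondrial chromosome at 2751 to 3707. It had 3334, 3399 and 3815 CPM in control replicates 1, 2 and 3 and 946, 931 and 871 CPM in MCKO replicates 1, 2 and 3 (log2 fold change -1.88, SE 0.058, adjusted p = 1.59e-08 by edgeR). Its neighbour mt-Nd2 (3914 to 4951), a proton-pumping subunit, had 1498, 1597 and 1881 CPM in the controls and 877, 874 and 783 CPM in MCKO, the smallest fall of the 13 (log2 fold change -0.91, SE 0.086, adjusted p = 5.37e-05 by edgeR). The controls were therefore 3.84-fold above MCKO for mt-Nd1 and 1.96-fold for mt-Nd2, though only transfer RNA genes lie between them. The log2 ratio of mt-Nd1 to mt-Nd2 was 1.15, 1.09 and 1.02 in controls and 0.11, 0.09 and 0.15 in MCKO, a pair chosen after their values were seen.

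The proton pump genes mt-Nd4 (10167 to 11544) and mt-Nd5 (11742 to 13565) fell from 2832 ± 262 to 995 ± 44.6 CPM and, for the latter, from 2264 ± 241 to 931 ± 56.8 CPM (SD, n = 3 each). The small subunit gene mt-Nd4l (9877 to 10173), on the same messenger RNA as mt-Nd4, had 385, 409 and 425 CPM in the controls and 129, 124 and 110.3 CPM in MCKO (log2 fold change -1.68, SE 0.063, adjusted p = 5.45e-08 by edgeR). Its copy Gm10222 and the mt-Nd4 copy Gm28439 were listed at 0 counts in all 6 libraries. So for these pairs every estimated count stood in the mitochondrial row, although the copies are identical over their whole length. The 0.0876 to 0.156 CPM of 3 counts a library covers counting error only and sets no limit for these copies. For mt-Nd3 (9459 to 9806) the row alone had 48.0, 61.8 and 205 CPM in the controls and 55.1, 57.4 and 39.7 CPM in MCKO, with control replicate 3 far above the other controls and the groups overlapping (log2 fold change -0.99, SE 0.67, adjusted p = 0.27 by edgeR). With Gm28438 added it had 301, 307 and 439 CPM in the controls and 151, 146 and 137 CPM in MCKO, without overlap (log2 fold change -1.21, SE 0.16, adjusted p = 0.00105 by edgeR). Without control replicate 3 the row alone had a log2 fold change of -0.04. With copies added, control replicate 3 was the highest library and MCKO replicate 3 the lowest for all 7 genes of complex I.

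Complex III has 1 mitochondrial subunit, cytochrome b, which carries the ubiquinone sites. Its gene mt-Cytb (14145 to 15288) had 4095, 3994 and 4406 CPM in the controls and 1438, 1412 and 1377 CPM in MCKO, 2.96-fold lower in MCKO (log2 fold change -1.50, SE 0.045, adjusted p = 1.22e-08 by edgeR). The values within each group lay close together and the groups were far apart. A nuclear pseudogene, Gm11410, shared 6.56% of its words with mt-Cytb and was listed at 0 counts in all 6 libraries.

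The 3 complex IV genes fell when counted with their copies, and mt-Co2 is the gene whose row alone did not show it. mt-Co1, the catalytic subunit with the haem and copper of the oxygen site (5328 to 6872), was the most abundant, with 10647, 10526 and 11231 CPM in the controls and 4939.7, 4796 and 4753 CPM in MCKO including Gm29216 (log2 fold change -1.10, SE 0.038, adjusted p = 3.57e-08 by edgeR). The mt-Co1 row alone gave -1.24 (SE 0.040, adjusted p = 2.04e-08 by edgeR), and the copy covers only the last 492 bases of mt-Co1. Gm29216 on its own had 848 ± 64.4 to 804 ± 22.3 CPM and was not called (log2 fold change -0.01, SE 0.055, adjusted p = 0.839 by edgeR), so mt-Co1 took 92.2 ± 0.444% of the pair in controls and 83.3 ± 0.715% in MCKO. A second nuclear pseudogene, Gm13340, shared 45.2% of its words with mt-Co1 and had 3.36 ± 0.303 CPM in controls and 1.14 ± 0.254 CPM in MCKO.

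mt-Co2, which receives electrons from cytochrome c (7013 to 7696), had 661, 1178 and 1115 CPM in control replicates 1, 2 and 3 and 1023, 748 and 1086 CPM in MCKO replicates 1, 2 and 3 in its own row. These groups overlapped (log2 fold change 0.01, SE 0.29, adjusted p = 0.972 by edgeR). Its identical copy Gm28661 had 3681, 3240.0 and 3596 CPM in the controls and 1305, 1457 and 1160.4 CPM in MCKO, more than mt-Co2 itself in every library, and was lower in MCKO (log2 fold change -1.36, SE 0.083, adjusted p = 4.23e-06 by edgeR). The share of the pair that stood in the mt-Co2 row was 15.2, 26.7 and 23.7% in controls and 43.9, 33.9 and 48.4% in MCKO. Added together the pair had 4343, 4418 and 4711 CPM in the controls and 2328, 2205 and 2247 CPM in MCKO, tight within groups and without overlap (log2 fold change -0.93, SE 0.043, adjusted p = 1.96e-07 by edgeR). The last 3 bases, the stop codon printed above, were the only letters by which the mt-Co2 transcript went beyond Gm28661.

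mt-Co3, the third core subunit (8607 to 9390), also stood for a larger part of its pair in MCKO, as mt-Co2 did, while mt-Co1 stood for a smaller part. Its row alone had 3171, 3053 and 3467 CPM in the controls and 1689, 1588 and 1698 CPM in MCKO, and its copy Gm28437 had 741, 861 and 719.7 CPM in the controls and 79.4, 121 and 40.8 CPM in MCKO. The copy was 9.64-fold lower in MCKO, more than any of the 13 genes (log2 fold change -3.21, SE 0.44, adjusted p = 0.00347 by edgeR). The mt-Co3 row held 80.6 ± 2.44% of the pair in controls and 95.4 ± 2.36% in MCKO. The pair together had 3912, 3915 and 4186 CPM in the controls and 1768, 1708 and 1739 CPM in MCKO (log2 fold change -1.14, SE 0.040, adjusted p = 3.67e-08 by edgeR). With copies added, mt-Co1, mt-Co2 and mt-Co3 thus fell by 2.24-fold, 1.99-fold and 2.30-fold, and the 3 genes together went from 19296 ± 721 to 8827 ± 181 CPM.

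**Figure D2:**
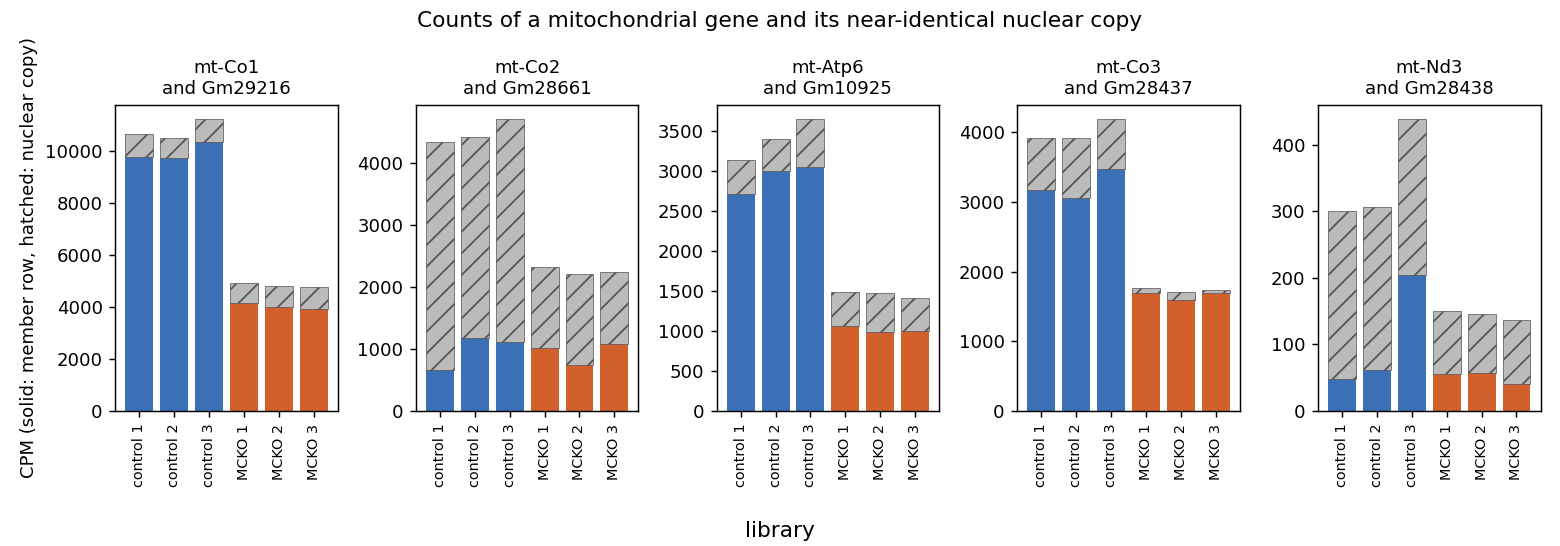
CPM (linear axes from 0) of 5 mitochondrial genes (solid) and their near-identical nuclear copies (hatched, stacked on top) in each of the 6 libraries, blue for control and orange for MCKO. The stacked totals are lower in every MCKO library, while the solid part of mt-Co2 spans 661 to 1178 CPM in controls and 748 to 1086 CPM in MCKO.

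Complex V has 2 mitochondrial subunits, both in its membrane part. mt-Atp6, which forms the proton path beside the rotor (7927 to 8607), had 3130.0, 3396 and 3641 CPM in the controls and 1479.7, 1468 and 1404 CPM in MCKO with Gm10925 added (log2 fold change -1.16, SE 0.055, adjusted p = 2.47e-07 by edgeR). Its row alone gave -1.46, while Gm10925 on its own had 472 ± 109 to 438 ± 37.6 CPM and was not called (adjusted p = 0.826 by edgeR). The mt-Atp6 row held 86.1 ± 2.36% of that pair in controls and 69.8 ± 2.26% in MCKO. mt-Atp8, a short membrane protein (7766 to 7969), had 323, 462 and 529 CPM in the controls and 186, 183 and 165 CPM in MCKO, with control replicate 1 well below the other controls and yet above every MCKO library (log2 fold change -1.24, SE 0.19, adjusted p = 0.00295 by edgeR).

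**Figure D3:**
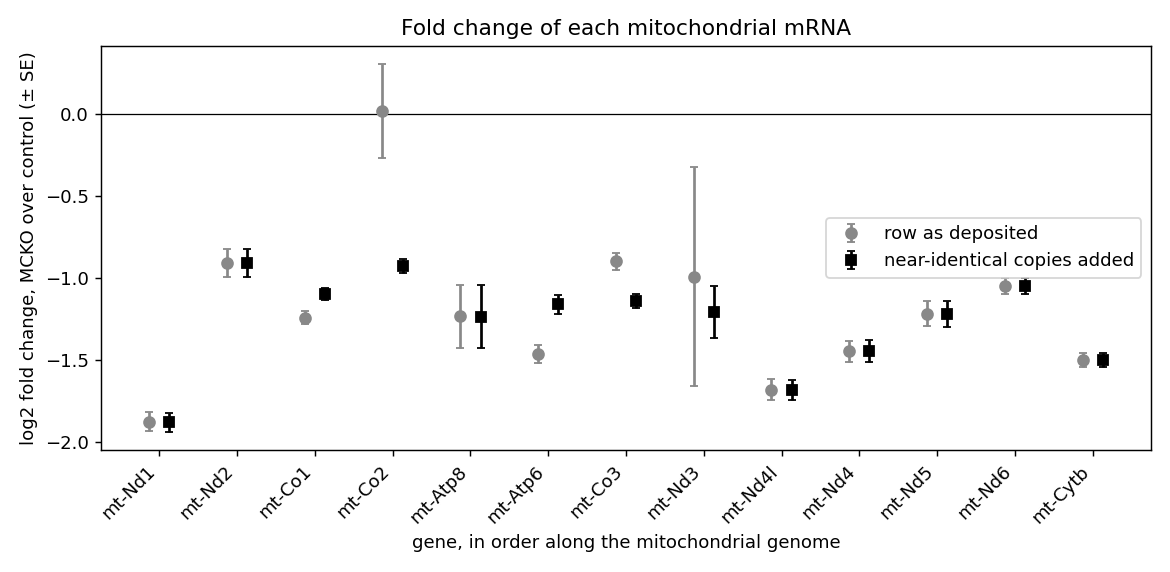
Log2 fold change of MCKO over control with its standard error for each of the 13 genes, as deposited (grey circles) and with near-identical copies added (black squares). As deposited the values run from -1.88 for mt-Nd1 to 0.01 for mt-Co2, and with the copies from -1.88 to -0.91.

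To see which genes fell more or less than the others, each was set against the mitochondrial messenger RNA total of its library, copies included, in an edgeR fit over all genes. Relative to that total 4 genes were lower in MCKO, mt-Nd1, mt-Nd4l, mt-Cytb and mt-Nd4, and 3 were higher, mt-Nd2, mt-Co2 and mt-Nd6. On this scale 1.43% of all tested genes were lower and 92.5% higher, on a total that itself fell. Nearly all tested genes are nuclear and outside that total, so these percentages are no yardstick for the 13. With so many genes called, adjustment over all tested genes changed p little, for mt-Nd6 from 0.0235 to 0.0254 by edgeR. The share of mt-Nd1 went from 9.03 ± 0.132% to 5.69 ± 0.111% (log2 difference -0.67, SE 0.057, adjusted p = 4.50e-07 by edgeR). That of mt-Nd4l went from 1.05 ± 0.0300% to 0.753 ± 0.0426%, that of mt-Cytb from 10.7 ± 0.240% to 8.76 ± 0.0353% and that of mt-Nd4 from 7.27 ± 0.239% to 6.18 ± 0.136%. The share of mt-Nd2 went from 4.25 ± 0.256% to 5.25 ± 0.219% (log2 difference 0.30, SE 0.066, adjusted p = 0.00102 by edgeR) and that of mt-Co2 from 11.6 ± 0.181% to 14.0 ± 0.348% (log2 difference 0.28, SE 0.059, adjusted p = 7.27e-04 by edgeR). These shares did not overlap between groups, where 1.59% of all tested genes had MCKO wholly below control and 92.6% wholly above. Shares of 1 total are bound together, so a lower share of mt-Nd1 comes with higher shares of others. With the rows as deposited 5 of the 13 were lower, with mt-Atp6 in addition, and 4 higher, with mt-Co3 in addition, beside 1.38% and 92.8% of all tested genes. The calls of mt-Atp6 and mt-Co3 thus turned on how their pairs were split.

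The other 6, mt-Co1, mt-Co3, mt-Atp6, mt-Atp8, mt-Nd3 and mt-Nd5, were not called relative to the total. The fit shares information on spread across all tested genes, nearly all nuclear, so an SE does not reflect the gene's own spread alone. The shares of mt-Co1, mt-Co3 and mt-Atp6 were nonetheless wholly higher in MCKO. So were 92.6% of all tested genes, nearly all of them nuclear and set against a total that fell. Those of mt-Atp8, mt-Nd3 and mt-Nd5 overlapped between groups. mt-Co1 stood at 27.8 ± 0.764% to 30.0 ± 0.319%, the largest share in both groups (log2 difference 0.11, SE 0.061, adjusted p = 0.0994 by edgeR). mt-Nd5 stood at 5.81 ± 0.268% to 5.79 ± 0.274% (log2 difference -0.01, SE 0.064, adjusted p = 0.931 by edgeR). mt-Atp8 was called lower without control replicate 1 (log2 difference -0.17, adjusted p = 0.0194 by edgeR) and mt-Nd3 higher without control replicate 3 (0.15, adjusted p = 0.00698 by edgeR). Complex I genes were found on both sides, with mt-Nd1 and mt-Nd4l lowest and mt-Nd2 highest. The largest contrast between genes was therefore within complex I.

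**Figure D4:**
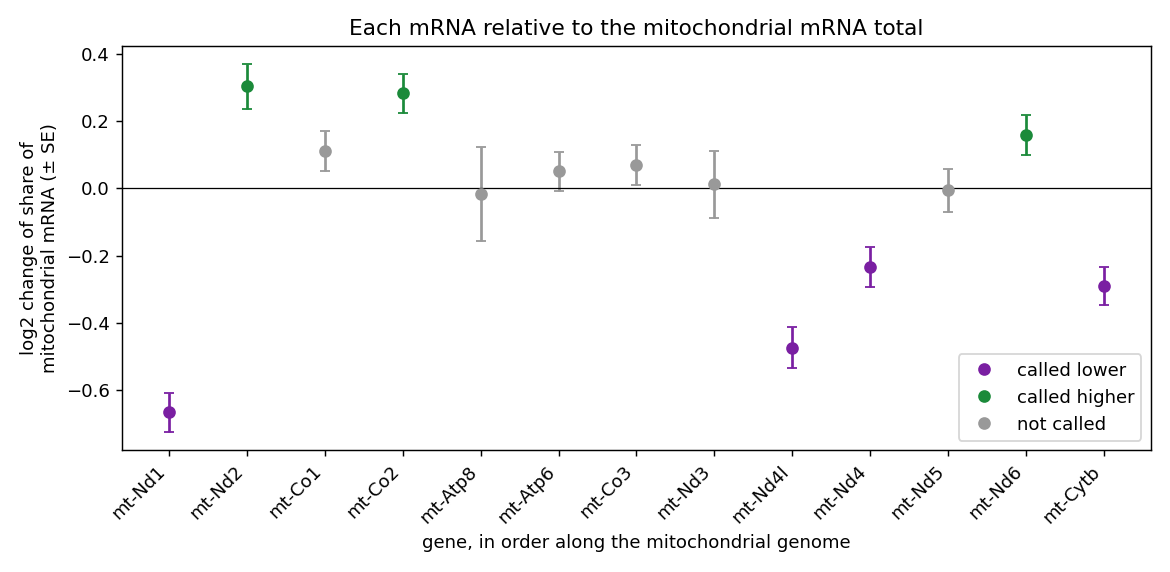
Log2 difference between MCKO and control in each gene's share of the mitochondrial messenger RNA total (copies added), with its standard error, in order along the mitochondrial genome. Purple marks genes called lower, green genes called higher and grey genes not called, from -0.67 for mt-Nd1 to 0.30 for mt-Nd2.

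By strand, 12 of the 13 protein genes lie on the plus strand of the reference, whose messenger RNAs come from the heavy-strand promoter. mt-Nd6, a membrane subunit of complex I (13552 to 14070), is the 1 protein gene on the minus strand, transcribed from the light-strand promoter together with 8 of the 22 transfer RNA genes. It had 585, 573 and 607 CPM in the controls and 273, 287 and 256 CPM in MCKO, close within each group and without overlap (log2 fold change -1.05, SE 0.049, adjusted p = 2.00e-07 by edgeR). The log2 ratio of mt-Nd6 to the 12 plus strand genes was -5.71, -5.80 and -5.85 in controls and -5.63, -5.49 and -5.65 in MCKO as deposited, a difference of 0.19. With copies added the ratio was -6.02 ± 0.05 and -5.86 ± 0.07, a difference of 0.16. The groups did not overlap, and the exact permutation p was 0.1, 2-sided, the smallest possible. The difference was 0.45 against mt-Cytb alone and 0.16 against mt-Nd5 alone. With copies added, the plus strand genes mt-Nd2 and mt-Co2 fell less than mt-Nd6 (log2 fold changes -0.91, -0.93 and -1.05). The other plus strand genes fell more. Both the size and the direction of the difference thus turned on the plus strand gene that mt-Nd6 was set against.

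In the fit relative to the total, the share of mt-Nd6 went from 1.51 ± 0.0545% to 1.69 ± 0.0787% (log2 difference 0.16, SE 0.060, adjusted p = 0.0254 by edgeR). The call was lost without control replicate 2 (adjusted p = 0.0568), MCKO replicate 1 (0.0565) or MCKO replicate 2 (0.156), and with a replicate block (0.0831), with its direction kept. The adjusted p ran from 0.0122 to 0.156 over the alternatives. On this scale the shares of the plus strand genes mt-Nd2 and mt-Co2 rose more than that of mt-Nd6 (log2 differences 0.30 and 0.28). Those of the other plus strand genes rose less or fell. With only 1 protein gene on the minus strand, strand and gene cannot be told apart. The library kit keeps the strand, but whether the counting used it is not given in the sources used here. If it did not, reads of mt-Nd6 and of the heavy-strand precursor opposite it cannot be told apart.

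Levels of different genes were compared per length, as CPM per kilobase of the annotated transcript, with copies added. The whole annotated length was used, with no allowance for the size of the sequenced fragments. How far this lowers the values of the short mt-Atp8, mt-Nd4l and mt-Nd3 was not tested. Nor was the part of the poly(A) tail, on which a count depends after poly(A) selection and which may differ between genes. In controls mt-Co1 had 6991 ± 244 and mt-Co2 6565 ± 285 CPM per kilobase (SD, n = 3), and their ranges overlapped. mt-Co3 at 5107 ± 201 and mt-Atp6 at 4977 ± 376 followed and did not differ beyond their spread. Nor did mt-Nd1 at 3674 ± 273 and mt-Cytb at 3641 ± 188, nor mt-Atp8 at 2146 ± 516 and mt-Nd4 at 2055 ± 190.1. The lowest were mt-Nd2 at 1598 ± 191, mt-Nd4l at 1369 ± 68.1, mt-Nd5 at 1241 ± 132, mt-Nd6 at 1133 ± 33.4 and mt-Nd3 at 1002 ± 224 CPM per kilobase. From mt-Nd4l down, the range of each gene overlapped that of the next. The complex IV and V genes, bar mt-Atp8, were thus above all complex I genes.

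In MCKO the highest 4 genes per kilobase were the same 4, with mt-Co2 at 3304 ± 91.5, mt-Co1 at 3126 ± 63.2, mt-Co3 at 2217 ± 38.1 and mt-Atp6 at 2130.1 ± 59.7 CPM per kilobase. mt-Cytb at 1232 ± 26.8 now stood above mt-Nd1 at 957 ± 41.4, and mt-Nd2 at 814 ± 51.6 above mt-Nd4 at 722 ± 32.3. The MCKO ranges of mt-Co2 and mt-Co1 did not overlap. The ranges of mt-Nd4l, at 408 ± 33.1, and mt-Nd3, at 416 ± 19.5, did. mt-Nd4l and mt-Nd4, from 1 messenger RNA, differed per length in both groups. Their annotated lengths are 297 and 1378 bases, and the part of length in this difference was not tested.

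The 22 transfer RNA genes without values here are mt-Tf, mt-Tv, mt-Tl1, mt-Ti, mt-Tm, mt-Tw, mt-Td, mt-Tk, mt-Tg, mt-Tr, mt-Th, mt-Ts2, mt-Tl2 and mt-Tt on the plus strand and mt-Tq, mt-Ta, mt-Tn, mt-Tc, mt-Ty, mt-Ts1, mt-Te and mt-Tp on the minus strand. The 2 ribosomal RNA genes are mt-Rnr1 and mt-Rnr2, both on the plus strand. A nuclear row, Gm20594 on chromosome 6 at 79817916 to 79818364, shared 42 of its 419 words with mt-Rnr2. It had 61.9, 46.7 and 55.9 CPM in the controls and 29.9, 29.6 and 25.9 CPM in MCKO and was lower in MCKO (log2 fold change -0.88, SE 0.10, adjusted p = 1.18e-04 by edgeR). How many of its reads come from mt-Rnr2 was not tested. Cep295, a centrosome gene, shared 4 of 6124 words with mt-Ty in 1 of its transcripts and was not called (log2 fold change -0.00, adjusted p = 0.967 by edgeR).

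Nuclear subunit genes of complexes I, II, III and V fell more often than they rose, with medians closer to 0 than the mitochondrial genes, and those of complex IV went both ways. Of the nuclear complex I subunits 19 of 36 tested genes fell and 3 rose, with a median log2 fold change of -0.19, against -1.88 to -0.91 for the 7 mitochondrial ones. Ndufs1, the largest subunit of the electron-entry arm, fell from 309 ± 10.4 to 205 ± 4.76 CPM, while Ndufv3 rose from 78.3 ± 4.22 to 135 ± 4.11 CPM. In complex III 6 of 9 fell and the others were not called (median -0.32), among them the core protein gene Uqcrc2, from 357 ± 8.15 to 252 ± 4.41 CPM. In complex IV 5 of 15 fell and 5 rose (median -0.02), and Cox4i2, an isoform known to be induced by low oxygen, rose from 5.08 ± 1.14 to 54.1 ± 1.83 CPM. In complex V 14 of 18 fell (median -0.27), among them Atp5g1, a rotor ring gene, from 239.8 ± 20.1 to 145 ± 4.87 CPM. All 4 genes of complex II, which has no mitochondrial gene, fell (median -0.32), Sdhb from 186 ± 12.5 to 121 ± 3.60 CPM. Over all tested genes 29.1% fell and 29.3% rose.

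Genes that make and keep mitochondrial RNA were next compared, beside the 29.1% lower and 29.3% higher of all tested genes. Of 10 genes of mitochondrial transcription 5 fell and 2 rose (median -0.15). Polrmt, the RNA polymerase, went from 30.7 ± 5.05 to 22.0 ± 2.03 CPM (adjusted p = 0.0238 by edgeR), and its cofactor Tfb2m from 25.4 ± 2.12 to 18.8 ± 1.99 CPM. Mrpl12, a ribosomal protein that also binds the polymerase, went from 136 ± 15.1 to 92.5 ± 3.39 CPM. Mterf1b, a terminator factor gene with a similar paralogue, Mterf1a, was higher, from 2.27 ± 0.299 to 2.97 ± 0.286 CPM. Of 31 genes of RNA processing and stability 21 fell and 1 rose (median -0.26). Rexo2, an exonuclease of short RNA, went from 35.4 ± 1.03 to 17.7 ± 1.03 CPM, Pnpt1, the polynucleotide phosphorylase of the degradosome, from 67.4 ± 2.30 to 38.7 ± 2.03 CPM, and Fastkd2, an RNA-binding protein, from 46.3 ± 1.78 to 29.1 ± 0.237 CPM. The gene that rose was Grsf1, an RNA granule protein, from 161 ± 6.30 to 205 ± 2.44 CPM.

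Genes of mitochondrial DNA replication went both ways, as 29.1% lower and 29.3% higher did over all tested genes, with 3 of 17 lower and 6 higher (median 0.00). The polymerase genes Polg and Polg2 rose, Polg from 92.5 ± 2.75 to 106 ± 0.674 CPM and Polg2 from 7.23 ± 0.751 to 11.3 ± 0.490 CPM, while Dna2, a nuclease that also acts in the nucleus, fell from 78.0 ± 2.46 to 42.4 ± 2.11 CPM. The amount of mitochondrial DNA was not analysed here. Of 12 biogenesis regulators 3 fell and 3 rose, also near those shares, with the coactivator Pprc1 lower, from 119 ± 3.28 to 84.4 ± 1.71 CPM, and Ppargc1b higher, from 15.9 ± 1.18 to 24.0 ± 0.637 CPM. Of 12 translation factors 6 fell, led by the elongation factor Gfm1, from 149 ± 2.53 to 85.6 ± 1.81 CPM, and the others were not called (median -0.27). Among 22 other mitochondrial proteins 15 fell and 2 rose (median -0.22), with the adenine nucleotide carrier Slc25a5 going from 687 ± 17.7 to 405 ± 7.22 CPM and the channel Vdac1 rising from 496 ± 11.9 to 682 ± 12.1 CPM. Of 7 mitophagy genes 3 rose and 1 fell (median 0.44), the receptors Bnip3 and Bnip3l from 158 ± 7.84 to 917 ± 26.5 CPM and from 179 ± 10.4 to 472 ± 11.3 CPM.

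**Figure D5:**
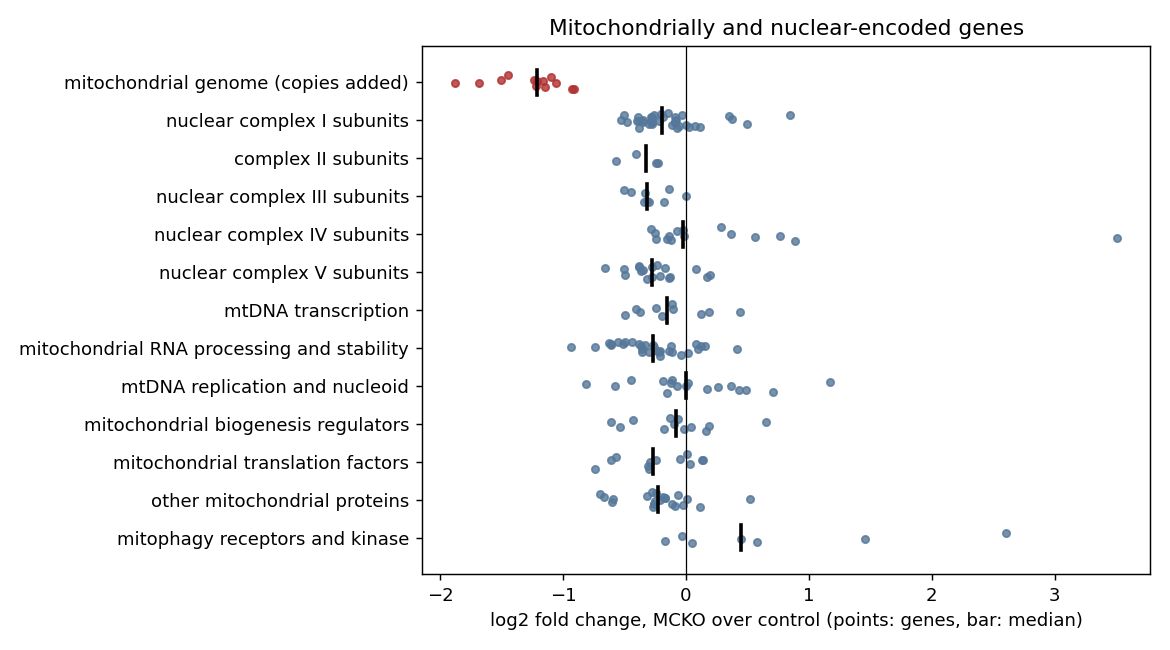
Log2 fold change of MCKO over control for the 13 mitochondrial genes with copies added (red) and for the tested genes of the 12 nuclear lists described (blue), 1 point per gene, with black bars at the medians. The 13 lie between -1.88 and -0.91, while the medians of the nuclear lists lie between -0.32 for complex II and 0.44 for mitophagy.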

How the data were processed

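RNA of 6 whole-heart libraries was sequenced from a stranded mRNA kit, per the labels' protocols. The deposited values are estimated counts per gene, whole numbers as the authors deposited them. The submitters' processing notes name kallisto and mm10. The sources used here do not give the transcript set, the strand setting, how transcripts were summed or how values were rounded. Poly(A) selection also means that a count depends on the tail of an RNA.

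Gene biotypes, coordinates and transcripts came from GENCODE M21 (GRCm38). Near-identical copies were nuclear transcripts with at least 90% of their 31-base words in a mitochondrial one. edgeR 4.0.16 (R 4.3.3; TMM, filterByExpr, robust quasi-likelihood test, Benjamini-Hochberg over 14697 tested genes) compared 3 MCKO with 3 control libraries, with a call at an adjusted p under 0.05. The rows were fitted as deposited and again with copies added to their genes. The version of the fit relative to the mitochondrial total that holds the copies was chosen after seeing the data, as was the strand ratio with copies. Every mt- row could be named, nuclear rows that share sequence with one, and at most the 4 called genes of smallest p from each list, 1 marker gene apart. DESeq2 1.42.0, other scalings and filters, a replicate block and leaving out each library were the alternatives. The genes and lists were chosen with earlier results of these data known.

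No library repeated another: counts of libraries in 1 group differed by 3.46 to 14.5 chi-square per degree of freedom. With 19256840 to 34246477 counts a library, 3 counts are 0.0876 to 0.156 CPM, a limit of counting error only.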

Additional observations from a re-analysis of the deposited data

How the results depend on the processing

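The fall of the 13 genes with copies added kept its direction and call under all 14 alternatives for each gene (182 values, log2 fold changes of -1.94 to -0.81). As deposited, 180 of 182 values counted as kept, where a gene called in neither fit counted so whatever its sign or size. The exceptions came from adding the copies, which turned mt-Co2 from 0.01 to -0.93 and brought mt-Nd3 to -1.21 (adjusted p = 0.00105 by edgeR). Apart from these, the mt-Co2 row was not called and ran from -0.21 (without control replicate 1) to 0.16 (without MCKO replicate 2). The mt-Nd3 row, also not called, ran from -1.34 (without control replicate 1) to -0.04 (without control replicate 3). Relative to the mitochondrial total with copies, 111 of 117 values counted as kept, again whatever the sign for a gene called in neither fit. The others were those given for mt-Nd6, mt-Atp8 and mt-Nd3. Some values of uncalled genes did change sign. On this scale mt-Nd5 ran from -0.04 to 0.04 over the alternatives. Without control replicate 3 mt-Atp8 went from -0.02 to 0.09, and without control replicate 1 mt-Nd3 went from 0.01 to -0.06. The difference in the mitochondrial share of the counts was -1.97 percentage points for the rows alone and -2.28 with copies. For the rows alone on a total without the 100 most abundant nuclear genes it was -2.35. These points stand on unlike sums and totals, and in the same order the share was 2.47-fold, 2.42-fold and 2.40-fold lower in MCKO. The strand difference was 0.19, 0.45 over mt-Cytb and 0.38 over the plus strand genes without copies.

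No pairing of the libraries by replicate number was seen. Same-numbered deviations correlated at -0.00, 0.02 and -0.13, and 1 of 6 libraries correlated best with its own number. With 3 libraries a group this check cannot exclude a pairing. With a replicate block, 7765 genes were called in place of 8587, 11 of the 13 as deposited and all 13 with copies were still lower, and the genes lower relative to the total as deposited went from 5 to 3, with the cause not tested. With 3 libraries a group, single-value permutation tests cannot go below 0.1, and estimated counts of identical sequences have an error that these files do not give.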
